A study of Mus musculus with 2 samples.

Results

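Glycam1, Ccl21a, Ccl19, Cxcl13, Cr2, Ms4a1, Cd79a, Cd3e and Ltb are 9 genes known from the vessels, stroma and lymphocytes of lymph nodes, and their RNA was measured in the heart of female B6CASTF1/J mice, F1 animals of C57BL/6J crossed with CAST/EiJ, aged 18 to 20 months. They are 9 of 55536 annotated genes in the deposited gene table, matched by gene name, and all 9 were among the 17434 genes with 10 or more counts summed over both libraries. They were chosen by their counts in these same libraries, as genes high in replicate 2 only, so the differences between the libraries are given as descriptions with no test. The labels give 1 group, heart with no treatment, with biological replicate 2 and biological replicate 1, each made from 300 ng of total RNA to which ERCC spike-ins, a mix of synthetic control RNAs, had been added. The labels name a separate biosample for each library but the same donor entry, so it is not settled whether the libraries came from separate animals, and their spread may include technical variation.

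A lymph node draws lymphocytes from the blood through high endothelial venules, vessels that carry sulfated mucins such as the product of Glycam1, to which lymphocytes bind. The chemokines CCL21 and CCL19 then guide T cells through the receptor CCR7, and CXCL13 guides B cells into follicles through CXCR5. Lymphotoxin, which holds the product of Ltb, is made by lymphocytes and keeps the stroma producing these chemokines. Heart muscle is not a lymphoid organ.

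The description "high in replicate 2 only" held for 1 of the 9 genes, Glycam1, which had no count in replicate 1. For 7 others it held as a difference in level with counts in both libraries, and for Ccl21a it did not hold. Called means 2-fold or more apart on the scale of log2(TPM + 0.1), where TPM is a transcript's relative abundance scaled over the whole library. By that measure 8 of the 9 genes were higher in replicate 2 and none was lower, where the background over all 17434 genes was 5.64% for higher and 1.53% for lower. With a pseudocount of 1 in place of 0.1, 6 genes were called, and Ms4a1 and Ccl19 were not. Since the genes were chosen by this difference, their count is no evidence about them. The 9 genes together held 106.2 TPM in replicate 2, against 30.9 TPM in replicate 1. Without Glycam1 and Ccl21a, the other 7 held 21.5 TPM in replicate 2, against 3.03 TPM in replicate 1.

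**Figure D1:**
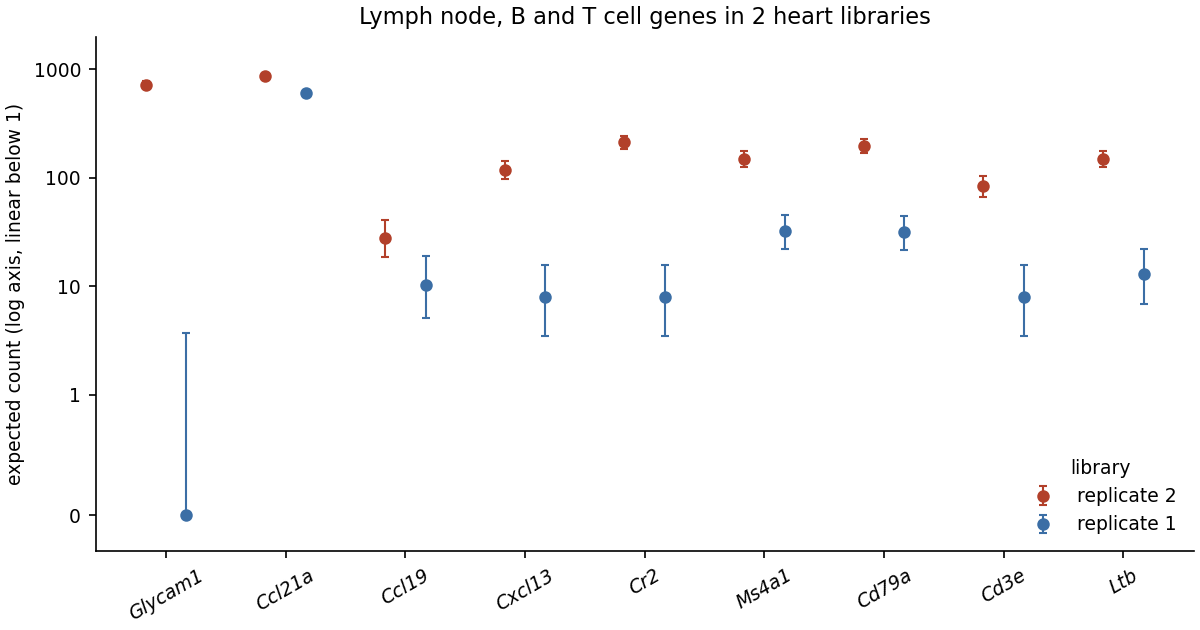
Expected counts (log axis, linear below 1) of the 9 genes in replicate 2 (red, left of each pair) and replicate 1 (blue); bars are exact Poisson 95% intervals, which cover counting error only. Glycam1 had 725 counts in replicate 2 and 0 in replicate 1, while Ccl21a was high in both libraries, with 866 counts in replicate 2 and 599.5 in replicate 1.

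Heart muscle genes were close in both libraries. The 6 cardiomyocyte markers, led by Myl2, Myh6 and Actc1, which encode sarcomere proteins, lay between -0.09 and -0.01 on the log2 scale, replicate 2 over replicate 1, and none was 2-fold apart. The total of expected counts was 36926429 for replicate 2 and 35897521 for replicate 1. A count of 0 leaves room for up to 3 counts, which is 0.0812 CPM in replicate 2 and 0.0836 CPM in replicate 1, where CPM is a count scaled to the library's total. Spike-ins took 0.515% of the counts in replicate 2 and 0.492% in replicate 1. Only counting error is covered by the intervals and floors, as sequenced reads are not independent molecules. In bulk tissue, fewer cells of a type and less RNA per cell cannot be told apart.

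Stretches of promoter sequence are shown first, as a description, for the genes that share a short motif. Any tie between the motif and the difference between the libraries was not tested. RefSeq promoter windows of 300 bases, 250 before and 50 after the annotated start, matched 8 of the 9 genes. The E-box CAGGTG, a motif of E-protein transcription factors that act in B and T cell development, was found on either strand in 5 of the 8 windows, against 20.2% of 32851 windows of the same length. The windows of Ccl21a, Ccl19 and Cxcl13 held no E-box, although Ccl19 and Cxcl13 were also called higher in replicate 2. No window was matched for Ms4a1. Exact matches to the octamer ATGCAAAT and the EBF core CCCNNGGG, motifs known from B cell promoters, were found in none of the 8. Of all windows, 1.74% and 13.7% held them. Sites that depart from these letters were not counted, so a window without a match may still hold a site of these factors. Each line gives 60 bases around the first E-box on the strand of the gene, 5′ to 3′, in build GRCm38.p6, with the E-box in capitals; where the capitals read CACCTG the E-box lies on the other strand. Counted from the RefSeq start site of each window, its first base lay at -220 in Glycam1, -88 in Cr2, -154 in Cd79a, 4 in Cd3e and -66 in Ltb. These start sites can differ from the gene bounds given below. For Cd79a and Ltb they lie downstream of the first base of those bounds, and the E-box of Ltb lies inside them. A match of letters is a description and does not show that a factor binds there.
Glycam1 (chr15:103565269-103565328, - strand): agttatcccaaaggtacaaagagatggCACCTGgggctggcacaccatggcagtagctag
Cr2 (chr1:195176775-195176834, - strand): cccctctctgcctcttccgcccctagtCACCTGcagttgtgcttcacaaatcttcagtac
Cd79a (chr7:24897316-24897375, + strand): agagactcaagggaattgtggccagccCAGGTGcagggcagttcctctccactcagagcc
Cd3e (chr9:45009576-45009635, - strand): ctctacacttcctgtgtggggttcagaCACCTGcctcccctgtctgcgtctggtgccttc
Ltb (chr17:35194414-35194473, + strand): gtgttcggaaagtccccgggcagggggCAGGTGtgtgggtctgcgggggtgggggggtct

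Glycam1, the mucin of high endothelial venules, stood apart from the other 8 genes (chr15:103562759-103565081, minus strand, mm10). It had 725 counts (95% Poisson interval 673 to 780) and 46.5 TPM in replicate 2, against 0 counts in replicate 1, where a 0 still allows up to 3 counts. Taking the floor of 3 counts for that library, the ratio of CPM was 235; from the counts themselves, the exact 95% interval of the fold began at 191. By log2(TPM + 0.1) its ratio of 8.86 ranked 3 among the 17434 genes. In replicate 2 it had the highest TPM of the 9 genes when Ccl21a, at 38.2 TPM, is taken alone. That order turns with the near-identical copies of Ccl21a added, which bring it to 52.9 TPM in the RSEM-layout table, and in the kallisto-layout table to 58.4 TPM against 56.2 TPM for Glycam1. Its protein-coding transcript of 628 nt took 98.8% of the gene's TPM in replicate 2 in the RSEM-layout table and 96.4% in the kallisto-layout table.

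Glycam1 is also known as a mucin of mouse milk, so milk genes were read beside it. The casein genes Csn1s1, Csn1s2a and Csn3, and Wap, which encodes whey acidic protein, were at 0 expected counts in both libraries. The kallisto-layout table gave Csn3 0.0665 TPM in replicate 2, against 0.044 TPM in replicate 1. A further casein gene, Csn2, named after its values were seen, had 1 count in replicate 2 and 0 in replicate 1. Its kallisto-layout level was 0.0818 TPM in replicate 2, against 0 in replicate 1. Lalba, named in the same way, had 3 counts in replicate 2 and 1 in replicate 1. The 7 milk genes summed to 0.43 TPM in replicate 2, against 0.07 TPM in replicate 1. Of these 7, 1 passed the filter on low counts, Lao1, called higher with 13 counts in replicate 2 and 1 in replicate 1. Genes known from the high endothelial venule itself were read in the same way. Among 11 of 13 such genes that passed the filter, 0 were called higher in replicate 2 and 0 lower, with a median log2 ratio of 0.34 beside 0.04 over all genes, and 2, Gcnt1 and Ackr1, were called higher in the kallisto-layout table. Named after their values were seen, the listed enzymes for carbohydrate ligands of these venules that passed were higher in replicate 2 without reaching 2-fold. Gcnt1 had 611 counts in replicate 2 and 300 in replicate 1, a fold of 1.98 (95% interval 1.72 to 2.28). The sulfotransferase gene Chst4 had 96 counts in replicate 2 and 55 in replicate 1, a fold of 1.70 (1.21 to 2.41). Chst2 had 99 counts in replicate 2 and 72 in replicate 1, a fold of 1.34 (0.977 to 1.84). Fut4 had 33 counts in replicate 2 and 22 in replicate 1, a fold of 1.46 (0.825 to 2.63). The intervals of Chst2 and Fut4 include 1. Fut7 did not pass the filter, with 7 counts in replicate 2 and 2 in replicate 1, a fold of 3.40 (0.648 to 33.6). The most abundant genes of the list, Cd34, Podxl, Emcn and Enpp2, are expressed in endothelium in general. Cd34 had 29.6 TPM in replicate 2, against 27.4 TPM in replicate 1, and Podxl had 21.1 TPM in replicate 2, against 28.9 TPM in replicate 1. Emcn had 14.8 TPM in replicate 2, against 21.2 TPM in replicate 1, and Enpp2 had 12.5 TPM in replicate 2, against 7.90 TPM in replicate 1. Madcam1, an adhesion molecule of mucosal venules, had 3 counts in replicate 2 and 0 in replicate 1. Sele, named after its values were seen, was lower, with 2 counts in replicate 2 and 9 in replicate 1. Of the 11 genes that passed, 8 were higher in replicate 2 to any degree. As the median of all genes was also above 0, at 0.04, that number is a description and no evidence about these vessels.

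Ccl21a, a CCR7 ligand made by lymph node stroma and by lymphatic vessels, was high in both libraries (chr4:42772860-42773993, minus strand). It had 866 counts and 38.2 TPM in replicate 2, against 599.5 counts and 27.9 TPM in replicate 1. The fold in CPM was 1.40 (95% interval 1.26 to 1.56), and its log2 ratio of 0.45 was not called and ranked 2852. Among the genes at 10 TPM or more on average, where 95% of ratios lay between -0.50 and 0.71, this value lay inside the range of other genes. In replicate 1 Ccl21a held 27.9 of the 30.9 TPM of all 9 genes.

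The number given to Ccl21a rests on how reads were split among copies of the gene. Of its 840 words of 31 nt, 80.6% also occurred in Gm21541, 79.5% in Gm13304 and 36.9% in Ccl21b and in Gm10591, all on chromosome 4. The coding sequence of 399 nt differed from that of Ccl21a at 2 positions in each of these 4 copies, T84A and C194T, counted from 1 at the A of the start codon, with the base of Ccl21a first. As background, Ccl21a encodes the form of CCL21 called the serine form and Ccl21b the leucine form, known for expression in lymphoid organs and in lymphatic vessels of other tissues. The 59 nt around position 194 are shown for Ccl21a and Ccl21b, with the differing base in capitals, since the 2 genes are told apart by these letters; the other 3 copies read as Ccl21b.
Ccl21a: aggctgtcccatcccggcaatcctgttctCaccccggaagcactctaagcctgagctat
Ccl21b: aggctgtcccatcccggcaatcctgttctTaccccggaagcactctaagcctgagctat

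The 2 tables agreed that copies held reads, and disagreed on which copy. In the RSEM-layout table Gm13304 had 319 counts in replicate 2 and 315 in replicate 1, and Gm21541 had 0 throughout. The kallisto-layout table gave the reverse: Gm21541 had 266.5 counts in replicate 2 and 253 in replicate 1, and Gm13304 had 0 in both. Summed over the 4 coding copies, counts were 319 in replicate 2 and 319 in replicate 1, a fold in CPM of 0.973 (95% interval 0.83 to 1.14). For all 9 Ccl21 entries of the annotation, scaffold copies included, counts were 1217 in replicate 2 and 922 in replicate 1, a fold of 1.28 (1.18 to 1.40). Lymphatic endothelial markers were not called higher in replicate 2 beside them. Of the 7 that passed, 0 were 2-fold or more higher and 1 was lower, the transcription factor gene Prox1, with 2807 counts in replicate 2 and 5441 in replicate 1. The median of the list was -0.20, and its summed level was 51.0 TPM in replicate 2, against 65 TPM in replicate 1. Without Prox1 the other 6 genes summed to 36.8 TPM in replicate 2, against 36.3 TPM in replicate 1. Lyve1, a receptor of lymphatic vessels and some macrophages, went the other way, with 675 counts in replicate 2 and 391 in replicate 1.

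**Figure D2:**
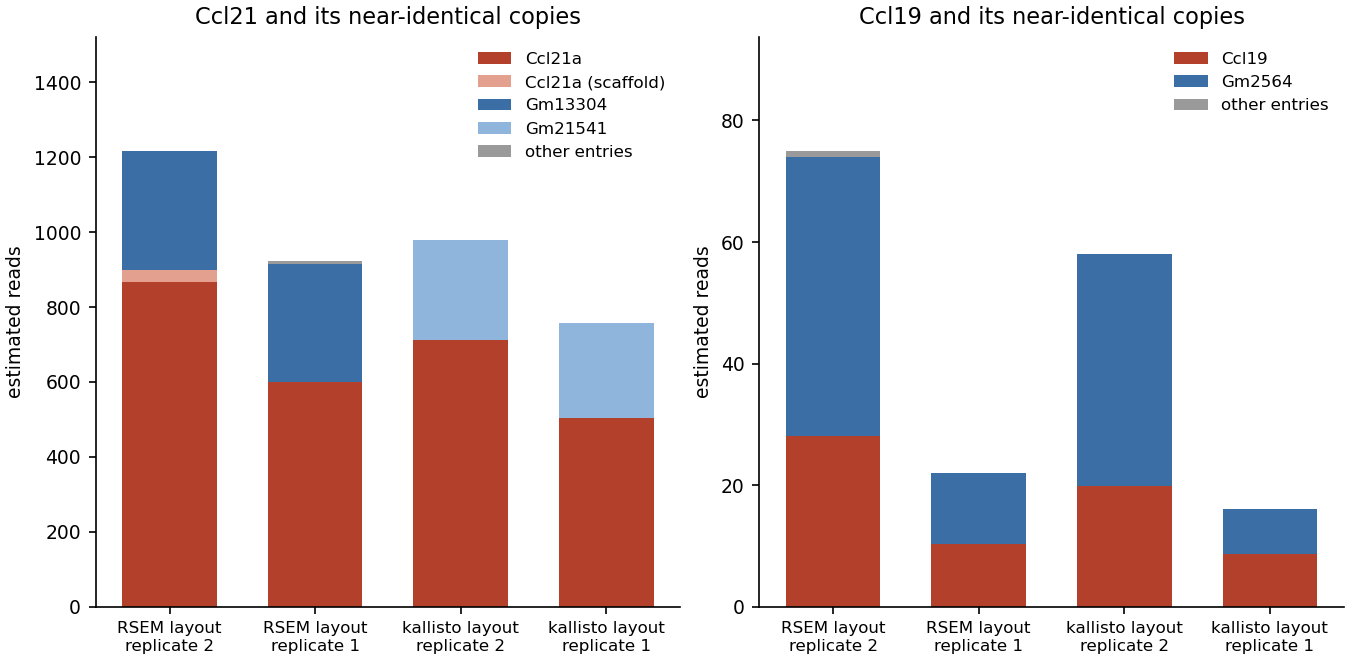
Estimated reads of Ccl21a (left panel) and Ccl19 (right panel) with their near-identical copies, stacked, by table layout with replicate 2 left of replicate 1. Most reads outside Ccl21a went to Gm13304 in the RSEM-layout table and to Gm21541 in the kallisto-layout table, while Ccl19 shared its reads with Gm2564 in both.

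Ccl19, the other CCR7 ligand, was the lowest of the 9 genes in counts in replicate 2 (chr4:42754525-42756577, minus strand). It had 28.1 counts and 1.65 TPM in replicate 2, against 10.4 counts and 0.68 TPM in replicate 1. Most of these reads were given to a transcript annotated as noncoding, with 66.1% of the gene's TPM in replicate 2 and all of it in replicate 1, and all of it in both libraries by kallisto-layout values, so they need not stand for mRNA of the ligand. The fold was 2.63 (95% interval 1.28 to 6.28) and the log2 ratio 1.17, inside the range of -0.75 to 1.5 that held 95% of genes between 1 and 10 mean TPM. By kallisto-layout counts the fold was 2.23, with an interval of 0.943 to 5.40 that includes 1. In its transcripts 58.8% of words occurred in Gm2564, a gene of the same cluster, which had 45.8 counts in replicate 2 and 11.6 in replicate 1. Ccl19 with Gm2564 had 73.9 counts in replicate 2 and 22.0 in replicate 1, a fold of 3.27 (2.01 to 5.53).

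Cxcl13, the chemokine that draws B cells into follicles, separated the libraries further (chr5:95956951-95961068, plus strand). It had 119 counts and 3.85 TPM in replicate 2, against 8 counts and 0.27 TPM in replicate 1. The fold was 14.5 (95% interval 7.11 to 34.3), and no word of its transcript occurred in another gene. The counting intervals of the folds of Cxcl13 and Ccl19 did not overlap, nor did those of Cxcl13 and Ccl21a.

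Receptors of these chemokines were higher in replicate 2 as well. Ccr7, the receptor of CCL19 and CCL21, had 61 counts in replicate 2 and 7 in replicate 1. Cxcr5, the receptor of CXCL13, had 77 counts in replicate 2 and 14 in replicate 1. Both Ccr6, with 13 counts, and its ligand gene Ccl20, with 5, were seen in replicate 2 and had 0 expected counts in replicate 1. For Ccr6 the direction turned in the kallisto-layout table, with 0.371 TPM in replicate 2, against 0.722 TPM in replicate 1. The scavenging receptor gene Ackr4 had 40 counts in replicate 2 and 16 in replicate 1. Cxcr4, the receptor of CXCL12, had 244 counts in replicate 2 and 79 in replicate 1. Cxcl12, a chemokine made by stroma in many tissues, was lower in replicate 2, with 4435 counts in replicate 2 and 6365 in replicate 1. The lymphocyte exit receptor gene S1pr1 was higher without reaching 2-fold, with 2341 counts in replicate 2 and 1555 in replicate 1. Of the 8 genes of this list that passed the filter, 6 were called higher and 0 lower, with a median of 1.68, and 2 were called with a pseudocount of 1. Over all genes, 5.64% were called higher. Ccr7 and Ccr6 passed the filter only through replicate 2, so the number called is a description and no evidence about these genes.

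Ms4a1, which encodes the B cell surface protein CD20, had counts in both libraries (chr19:11249675-11266241, minus strand). It had 149 counts and 1.71 TPM in replicate 2, against 32 counts and 0.39 TPM in replicate 1, a fold of 4.53 (95% interval 3.07 to 6.86). Cd79a, the alpha chain that signals for the B cell receptor, was close to it (chr7:24897381-24902197, plus strand). It had 197 counts and 4.93 TPM in replicate 2, against 31.5 counts and 0.83 TPM in replicate 1, a fold of 6.08 (4.22 to 9.34), and the intervals of the 2 genes' folds overlapped. Of the words of Cd79a, 12.2% also occurred in Gm32220.

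Cr2, the complement receptor of mature B cells and follicular dendritic cells, had the largest fold of the 8 genes with counts in both libraries (chr1:195136811-195176716, minus strand). It had 213 counts and 2.16 TPM in replicate 2, against 8 counts and 0.06 TPM in replicate 1, a fold of 25.9 (95% interval 12.9 to 60.7). Its interval overlapped with those of Cxcl13, Cd3e and Ltb and lay above those of Ms4a1, Cd79a, Ccl19 and Ccl21a. The posterior mean TPM of Cr2 differed from the maximum likelihood value, at 3.49 in replicate 2 and 0.92 in replicate 1, so by that measure its log2 ratio was 1.82 and not 3.82. Its effective length, averaged over 12 annotated transcripts, was 3347 nt in replicate 2 and 4824 nt in replicate 1. Its protein-coding transcript of 6207 nt took 29.97% of its TPM in replicate 2 and 61.8% in replicate 1, where the gene had 8 counts, by the RSEM-layout table. By kallisto-layout values a protein-coding transcript of 4227 nt led in replicate 2, with 25.8%.

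Other B cell genes were higher in replicate 2 along with these 3. Of 13 that passed, 12 were 2-fold or more higher and 0 lower, where 5.64% of all genes were called higher. Their median was 2.07 and their summed level 31.9 TPM in replicate 2, against 10.7 TPM in replicate 1. Some had under 10 counts in replicate 1 and passed the filter only through replicate 2. As the lists were chosen with earlier results of these data known, these values are descriptions and no evidence about B cell genes. Cd79b, the partner of Cd79a, had 177 counts in replicate 2 and 31 in replicate 1. Pax5, the transcription factor of B cell identity, had 202 counts in replicate 2 and 32 in replicate 1, and Fcmr, the receptor for IgM, had 136 in replicate 2 and 14 in replicate 1. Ebf1, a B cell factor that is also expressed in other cells such as fat precursors, was the exception, with 639 counts in replicate 2 and 550 in replicate 1. Most genes of the immunoglobulin and plasma cell list followed, with 8 of 10 higher, 1 lower and a median of 2.04. Igkc had 1245 counts in replicate 2 and 55 in replicate 1, and Ighm had 1149 in replicate 2 and 158 in replicate 1. Plasma cell genes of the list, named after their values were seen, were mixed. Prdm1 was the lower one, with 28 counts in replicate 2 and 61 in replicate 1. Sdc1 was close in both libraries, with 194 counts in replicate 2 and 185 in replicate 1. Tnfrsf17 did not pass the filter, with 2 counts in each library. Jchain had 204 counts in replicate 2 and 12 in replicate 1, and Mzb1 had 39 in replicate 2 and 14 in replicate 1.

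Cd3e, the epsilon chain of the T cell receptor complex, had 84 counts and 2.50 TPM in replicate 2, against 8 counts and 0.33 TPM in replicate 1 (chr9:44998740-45009627, minus strand). The fold was 10.2 (95% interval 4.95 to 24.4). Its top transcript in the RSEM-layout table was the protein-coding one in replicate 2, with 70.0% of the TPM, and an intron-retaining one in replicate 1, with 51.6% on 8 counts of the gene. By kallisto-layout values the protein-coding transcript led in both. Of 21 other T cell genes, 19 were called higher in replicate 2 and 0 lower, where 5.64% of all genes were called higher. Their median was 2.42 and their sum 40.1 TPM in replicate 2, against 9.73 TPM in replicate 1. With a pseudocount of 1, 10 were called. Many, Trbc1 and Trbc2 among them, had under 10 counts in replicate 1 and passed the filter only through replicate 2. Their number called and their median are therefore descriptions and no evidence about T cell genes. The constant region gene Trac had 76 counts in replicate 2 and 14 in replicate 1. Trbc2, the beta chain's constant region, had 86.4 counts in replicate 2 and 6.82 in replicate 1, and near-identical Trbc1 had 54.6 in replicate 2 and 5.18 in replicate 1, so reads between them may be split. The exceptions were Cd28, with 565 counts in replicate 2 and 498 in replicate 1, and, named after its values were seen, Bcl11b, with 98 in replicate 2 and 50 in replicate 1. Genes of the thymus were at or near 0. Ptcra and Rag2, of developing T cells, and Foxn1, Psmb11 and Aire, of thymic epithelium, had 0 expected counts in both libraries, and in the kallisto-layout table the highest of them, Ptcra, had 0.126 TPM in replicate 2, against 0.0969 TPM in replicate 1. Of the 9 thymus genes 1 passed the filter, Arpp21, which was not called and had 28 counts in replicate 2 and 22 in replicate 1.

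Ltb, the membrane-bound subunit of lymphotoxin, had 149 counts and 4.69 TPM in replicate 2, against 13 counts and 0.47 TPM in replicate 1 (chr17:35194439-35196320, plus strand). The fold was 11.1 (95% interval 6.32 to 21.4), and its protein-coding transcript of 1160 nt was the top one in both libraries. Lta, the partner subunit, had 15 counts in replicate 2 and 0 in replicate 1. Tnfrsf13c, the receptor for the B cell survival factor BAFF, had 46 counts in replicate 2 and 2 in replicate 1. The receptor of lymphotoxin and the signalling genes downstream of it were close in both libraries. Ltbr, the lymphotoxin receptor gene, had 529 counts in replicate 2 and 482 in replicate 1. Map3k14, the kinase of the noncanonical NF-kappaB pathway, had 124 counts in replicate 2 and 129 in replicate 1, while Nfkb2 had 773 in replicate 2 and 679 in replicate 1. Relb had 214 counts in replicate 2 and 172 in replicate 1. The lymphotoxin pathway list also holds genes of related factors, such as the BAFF receptor gene Tnfrsf13c. Of its 13 genes that passed, 2 were higher and 0 lower, Lta and Tnfrsf13c, with a median of 0.13. Over all genes, 5.64% were called higher. Lta and Tnfrsf13c passed the filter only through replicate 2, and neither was called with a pseudocount of 1.

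By posterior mean TPM, a level per length to which the deposited intervals belong, the order in replicate 2 was Glycam1, Ccl21a, Cd79a, Ltb, Cxcl13, Cr2, Cd3e, Ccl19 and Ms4a1. The intervals of neighbours overlapped in 6 of 8 pairs, and did not between Glycam1 and Ccl21a or Ccl21a and Cd79a. In replicate 1 the order was Ccl21a, Cr2, Ccl19, Cd79a, Cd3e, Ltb, Ms4a1, Cxcl13 and Glycam1, and 7 of 8 pairs of neighbours overlapped, all but Ccl21a and Cr2. Cr2 ranks lower by maximum likelihood TPM, which lay below its posterior interval in both libraries. By level, all 7 genes between 1 and 10 mean TPM were called, where 4.53% of genes in that band were, and 1 of the 2 genes at 10 or more was called, where 1.37% were. Below 1 TPM, where none of the 9 genes lay, 11.8% of genes were called.

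**Figure D3:**
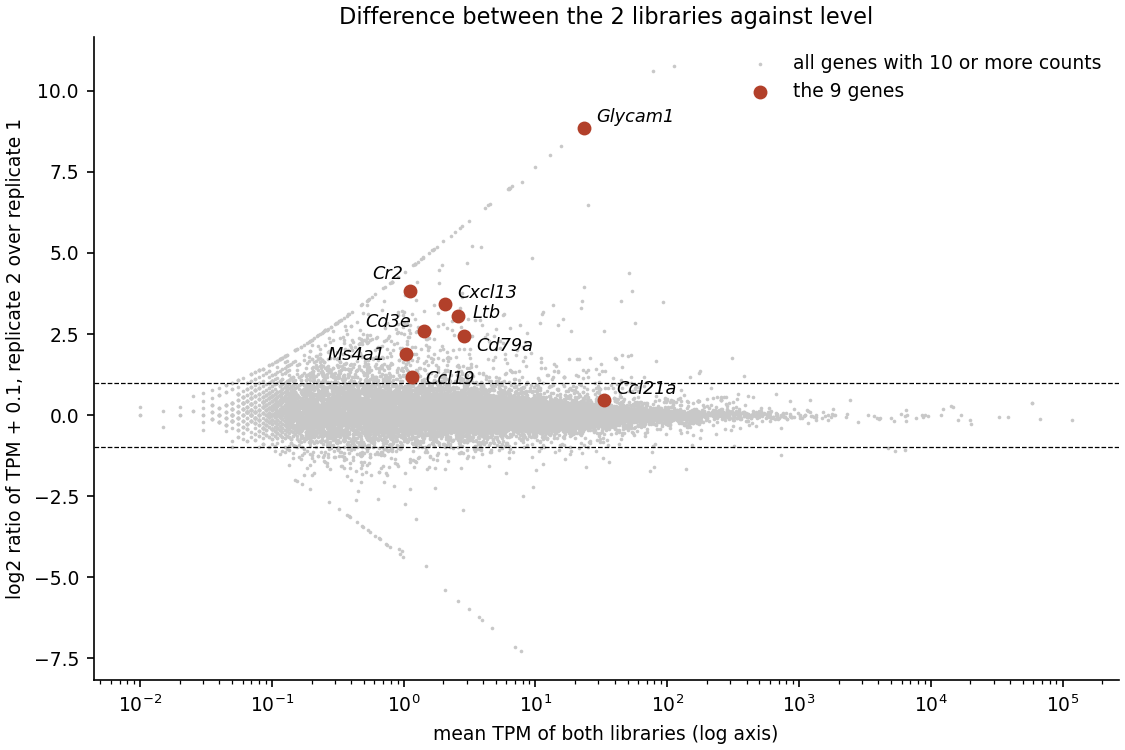
Log2 ratio of TPM + 0.1, replicate 2 over replicate 1, against the mean TPM of both libraries (log axis) for genes with 10 or more counts (grey) and the 9 genes (red); dashed lines mark 2-fold. Glycam1 lies at 8.86, Ccl21a at 0.45 among the bulk of genes of its level, and the other 7 between 1.17 and 3.82.

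Genes with a ratio most like that of the 9 were named by 1 number each, the distance of their log2 ratio of CPM from the median of the 9 genes, 3.27, over 2 libraries. The 10 closest protein-coding genes with 100 or more counts were Otop1, Rasal3, Cidec, Hp, Fcmr, Cdo1, Spib, Il7r, Doc2b and Irf4. Fcmr, Spib, Irf4 and Il7r are known from lymphocytes. Genes of other kinds lay as close, so a ratio near this median is not particular to lymphocyte genes. Cidec, a protein of fat droplets, had 785 counts in replicate 2 and 76 in replicate 1, and Il7r, the receptor of a survival cytokine of T cells, had 168 in replicate 2 and 18 in replicate 1.

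All 9 genes of MHC class II antigen presentation were higher in replicate 2, with a median of 1.84; Cd74, the invariant chain, had 2688 counts in replicate 2 and 723 in replicate 1. Myeloid and stromal lists were less uniform than this. Of 11 macrophage genes 4 were higher, with a median of 0.34. Named after their values were seen, these were Marco, with 151 counts in replicate 2 and 0 in replicate 1, Siglec1, with 465 in replicate 2 and 116 in replicate 1, Cd163, with 846 in replicate 2 and 356 in replicate 1, and Cd5l, with 19 in replicate 2 and 4 in replicate 1. The complement gene C1qa, expressed by resident macrophages, had 478 counts in replicate 2 and 410 in replicate 1. Of 11 genes of lymph node stroma 2 were higher, with a median of 0.17. Named after their values were seen, these were Grem1, with 36 counts in replicate 2 and 0 in replicate 1, and Fcer2a, also a B cell gene, with 70 in replicate 2 and 3 in replicate 1. Of 8 natural killer cell genes 4 passed the filter and 2 were higher, Nkg7 and Prf1. Among the 4 that did not pass, named after their values were seen, Ncr1 had 3 counts in replicate 2 and 5 in replicate 1. Klrb1c had 1.19 in replicate 2 and 5 in replicate 1, and Gzmb had 0 in replicate 2 and 5 in replicate 1. Eomes went the other way, with 4 counts in replicate 2 and 2 in replicate 1. Of 8 dendritic cell genes 6 passed and 2 were higher, Siglech and, named after its values were seen, Flt3. With a pseudocount of 1 the calls came to 2 macrophage genes, 1 stroma gene and none of the natural killer or dendritic cell genes. Some of the genes called in these lists, such as Marco and Grem1, passed the filter only through replicate 2. The numbers called are therefore descriptions, beside 5.64% called higher over all genes.

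Markers of tissues beside the heart moved with the 9 genes, and their part in the result was not tested. All 9 airway genes that passed of 12 were higher in replicate 2, with a median of 6.49. The list summed to 306 TPM in replicate 2, against 1.10 TPM in replicate 1. Most of the 9 passed the filter on low counts only through replicate 2, and the lists were chosen with earlier results of these data known. Their number called and their median are therefore descriptions and no evidence about airway genes. Sftpc, the surfactant gene of alveolar cells, was at 0 counts in both libraries. Bpifa1, a secreted airway protein, had 4650 counts in replicate 2 and 0 in replicate 1. Of 9 adipocyte genes 8 were higher, with a median of 3.41 and a sum of 517 TPM in replicate 2, against 100.4 TPM in replicate 1; Cfd, the secreted factor adipsin, had 4055 counts in replicate 2 and 343 in replicate 1. Red cell genes ran the other way. All 5 were 2-fold or more lower in replicate 2, with a median of -1.11 and a sum of 11150 TPM in replicate 2, against 23409 TPM in replicate 1, and 3 were lower in the kallisto-layout table.

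**Figure D4:**
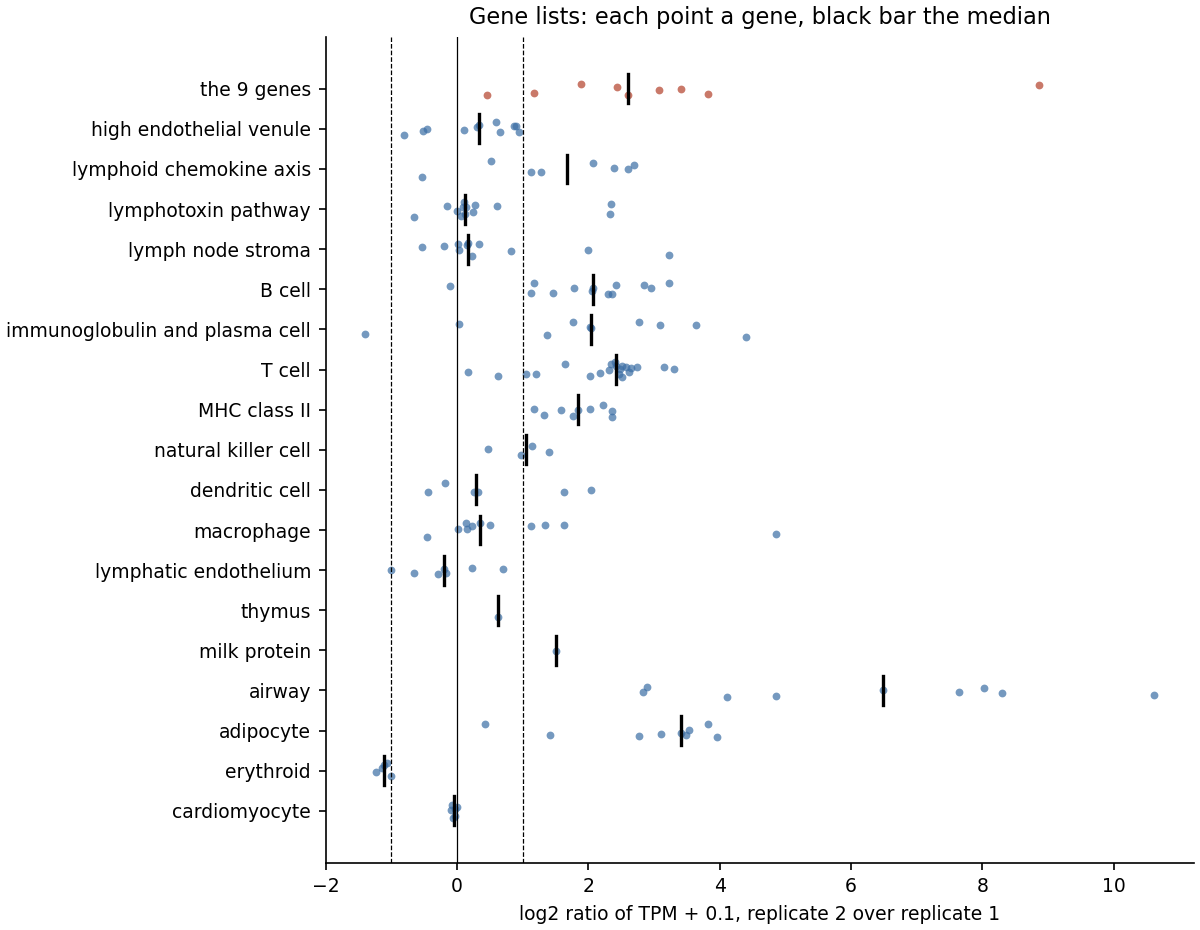
Log2 ratios of TPM + 0.1, replicate 2 over replicate 1, of the 9 genes (red) and of the genes of 18 lists that had 10 or more counts (blue); black bars are medians and dashed lines mark 2-fold. B cell, T cell and MHC class II genes lie mostly to the right of 1, high endothelial venule, lymphatic and cardiomyocyte genes around 0, and erythroid genes to the left of -1.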

How the data were processed

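Total RNA of 2 heart libraries was analysed from the deposited tables, all on mm10 and GENCODE M21 per the deposited readme. Per the file headers, the gene table and 1 transcript table have the column layout of RSEM and the other transcript table that of kallisto; which programs and aligner were run is not given in the sources used here. The expected counts and estimated counts deposited by the authors split reads that fit several genes. The TPM values deposited by the authors are scaled over all rows, spike-ins included; a posterior mean TPM with interval bounds (other values, per the file headers) and FPKM values, scaled per kilobase and library size, were also deposited by the authors. Transcript shares are the isoform percent values that the authors deposited, relative to the gene's TPM.

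From these, ratios of replicate 2 over replicate 1 were computed as log2(TPM + 0.1) (a scale that shrinks the differences of genes near 0) for genes with 10 or more expected counts summed over both libraries. Folds in CPM have exact conditional binomial 95% intervals on counts rounded to whole numbers, and counts exact Poisson 95% intervals. The fold calculation was tested on simulated Poisson counts, in which a 0 in replicate 1 was set to 1. That check covers neither a count of 0 nor spread beyond counting error. With 1 library on each side there was no test. Words of 31 nt were compared between annotated transcripts, and promoter windows came from RefSeq on GRCm38.p6. The 9 genes and the 18 lists, with 183 symbols, were chosen with earlier results of these data known. All 9 genes were named; of each list up to 4 genes with the highest mean TPM and those at 0 in both libraries could be named, all genes of the chemokine and lymphotoxin lists (the values of 1 gene are not reported here), and the 10 genes nearest the median ratio. Alternatives covered table, measure, scaling (TMM from edgeR 4.0.16), pseudocount, filter and copies. Python 3.11.15, numpy 2.4.6, pandas 2.3.3, scipy 1.17.1, matplotlib 3.10.9 and R 4.3.3 were used.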

Additional observations from a re-analysis of the deposited data

How the results depend on the processing

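Under 7 alternatives all 9 genes stayed higher in replicate 2 and Ccl21a stayed under 2-fold, between 0.41 and 0.49 on the log2 scale. With a pseudocount of 1 in place of 0.1, Ms4a1 came to 0.96 and Ccl19 to 0.66, under 2-fold, which left 6 genes called; a larger pseudocount shrinks ratios of low genes by construction. Scaling by ERCC spike-ins left 8 genes called. The share of all genes 2-fold or more higher, 5.64%, became 3.50% with no filter on low counts, 2.75% with a minimum of 100 counts, 1.61% with a pseudocount of 1 and 6.54% in the kallisto-layout table. With a pseudocount of 1 the genes called higher came to 2 of the chemokine list, 0 of the lymphotoxin pathway, 1 of lymph node stroma, 10 of the T cell list, 0 of natural killer cells, 0 of dendritic cells, 2 of macrophages and 0 of milk proteins, and those called lower to 0 of the immunoglobulin list and 0 of lymphatic endothelium. By kallisto-layout values, 2 high endothelial venule genes and 1 thymus gene were called higher, and 1 lymphotoxin pathway gene, 0 immunoglobulin genes, 0 lymphatic genes and 3 erythroid genes were called lower; the cause was not tested. The mean of Ccl21a, 33.0 TPM, became 48.0 TPM with genes sharing over 50% of its words and 50.2 TPM with all Ccl21 entries; that of Ccl19 became 2.79 TPM with Gm2564. The last 2 sums were chosen after seeing the data. No paired analysis was possible because the labels give 1 group. Leaving out a library leaves no ratio, and each level is then the other library's value.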

Other observations

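Antigen receptor segments were counted after the values of the lymphocyte genes were seen. Of 218 immunoglobulin variable genes, 124 were detected in replicate 2 and 39 in replicate 1, and their counts came to 773 in replicate 2 and 49 in replicate 1. Of 144 T cell receptor variable genes, 42 were detected in replicate 2 and 5 in replicate 1. Immunoglobulin constant genes held 4876 counts in replicate 2 and 427 in replicate 1, a fold in CPM of 11.1 (95% interval 10.1 to 12.3, counting error only). Kappa made up 86.2% of light chain constant counts in replicate 2 (Wilson 95% interval 84.3 to 87.9) and 67.9% in replicate 1 (57.1 to 77.1). Ighg2c, a constant gene of IgG, had 1198 counts in replicate 2 and 114 in replicate 1. Ighg2b had 486 counts in replicate 2 and 1 in replicate 1, and Ighg3 had 194 in replicate 2 and 3 in replicate 1. Ighm, of IgM, had 1149 counts in replicate 2 and 158 in replicate 1, and Ighe, of IgE, had 0 in both libraries. Constant genes of the IgG subclasses are similar in sequence, and how reads were divided among them was not examined.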
